A study of Mus musculus with 16 samples.

Results

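Genes that mark fibroblasts and pericytes were followed in B16F10 melanomas of lean and obese mice before and after etoposide. The set held 10 genes, Pdgfra, Pdgfrb, Dcn, Lum, Fap, Postn, Thy1, Rgs5, Cspg4 and Dpt, chosen by name as markers of stromal cells among the 45777 genes listed for these tumors. Earlier results of these data were known when the set was chosen. Cells of B16F10, a mouse melanoma line of C57BL/6 origin, were injected under the skin of 6-week-old lean C57BL/6J mice or obese leptin-deficient C57BL/6J-ob/ob mice. Libraries were made from 16 tumors, with 4 in each of 4 groups: lean pre-therapy, lean after etoposide (ETS), obese pre-therapy and obese after ETS. ETS, a topoisomerase inhibitor that breaks DNA, had been given as 5 injections of 20 mg per kg, and every tumor grew from the same graft. The pre-therapy tumors were not labelled as vehicle-treated, so the drug and the added days of growth cannot be told apart. The labels name B16F10 cells as the source, but the RNA came from tumor tissue, which holds host cells beside the graft. In such bulk RNA, fewer cells of a type and less RNA per cell cannot be told apart. The ob/ob host lacks leptin throughout life, which limits it as a model of acquired obesity, and the graft is a single cell line.

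Fibroblasts build and remodel the extracellular matrix, and pericytes wrap the endothelium of small vessels, where they are recruited by platelet-derived growth factor (PDGF). In tumors, fibroblasts deposit collagens, proteoglycans and matricellular proteins around the malignant cells, and PDGF receptor alpha is used to mark them. PDGF receptor beta, Rgs5 and the proteoglycan NG2, encoded by Cspg4, are used to mark pericytes, although NG2 is also made by melanoma cells and Thy1 also by mouse T cells.

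Total counts ranged from 47199949 to 61655287 per tumor, and the counts of the 10 genes made up between 0.00574% and 0.0581% of a library. Values below are counts scaled to library size (CPM) after TMM scaling, which corrects for libraries dominated by a few genes. All 10 melanocyte markers listed were detected in all 16 tumors, at a summed level of 9160 to 22200 TPM (scaled for transcript length and library size), so the grafted cell type was present throughout. Genes were tested with edgeR's quasi-likelihood test on 16209 genes with a count above 0 in every tumor, which took in 9 of the 10 identity genes, and a gene was called at an adjusted p under 0.05. Dpt had a count of 0 in 2 tumors and was not tested in this fit. The labels do not say that the tumors of a group came from separate animals, so p-values measure the spread between these tumors.

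RefSeq promoters of GRCm38.p6, the build of the mm10 genome, were matched for 5 of the 10 genes, and this match set the choice. They are shown from 150 bases before to 30 bases after the annotated start site. Of these genes, Pdgfra, Postn and Dpt varied together within groups while Rgs5 and Cspg4 did not. All windows are on the plus strand, and Postn is given at the second of its annotated starts. The Pdgfra window lies inside the gene span given below. Capitals mark 3 short motifs on either strand: the TATA box, a TATATA stretch, which overlaps it in Postn, and the GC box.
Pdgfra, chr5:75152101-75152280: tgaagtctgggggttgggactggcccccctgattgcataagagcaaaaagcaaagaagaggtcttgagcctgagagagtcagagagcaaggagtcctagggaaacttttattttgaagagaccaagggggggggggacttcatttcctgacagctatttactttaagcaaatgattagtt
Postn, chr3:54360957-54361136: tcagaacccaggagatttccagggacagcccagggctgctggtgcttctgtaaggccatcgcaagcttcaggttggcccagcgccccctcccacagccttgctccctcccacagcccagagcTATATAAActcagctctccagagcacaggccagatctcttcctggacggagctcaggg
Dpt, chr1:164796513-164796692: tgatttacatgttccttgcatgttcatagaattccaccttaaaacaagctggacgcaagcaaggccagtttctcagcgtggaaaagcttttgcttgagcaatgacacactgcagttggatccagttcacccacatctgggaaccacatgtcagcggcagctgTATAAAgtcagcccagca
Rgs5, chr1:169655351-169655530: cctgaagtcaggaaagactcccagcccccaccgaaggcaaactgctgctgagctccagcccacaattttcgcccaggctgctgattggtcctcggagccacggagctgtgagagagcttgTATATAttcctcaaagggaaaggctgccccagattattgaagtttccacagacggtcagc
Cspg4, chr9:56864954-56865133: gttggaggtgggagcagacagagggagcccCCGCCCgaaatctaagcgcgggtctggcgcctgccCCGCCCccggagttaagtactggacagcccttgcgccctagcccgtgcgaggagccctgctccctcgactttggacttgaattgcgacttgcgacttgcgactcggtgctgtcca
Searched over 250 bases before to 50 after the start, TATAAA lay 26 bases before the start in Postn and 12 bases after it in Dpt, against 13.6% of 32851 such windows holding it. TATATA lay 30 bases before the start in Rgs5 and 28 before it in Postn, and 5.67% of all windows held it. The GC box GGGCGG was found on the minus strand at 120 and 85 bases before the start of Cspg4, and 35.7% of all windows held it. The Cspg4 window also held 17 CG dinucleotides, against 4 to 6 in the windows of the other genes and a median of 7 over all windows. CAGAC, the core of the SMAD motif, was present in the windows of Rgs5, Pdgfra and Cspg4 and at the first start of Postn, with a share of 49.6% of all windows. No match to the AP-1 motif TGANTCA, the TEAD motif GGAATG or the CArG box of serum response factor was found in the 6 windows, which were held by 7.81%, 14.7% and 1.63% of all windows. Promoters of Pdgfrb, Dcn, Lum, Fap and Thy1 were not used here.

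Pdgfra (gene ID 18595, chr5:75151322-75198206) encodes the alpha receptor for PDGF, found on most fibroblasts. Its level was 17.9, 10.4, 1.24 and 4.18 CPM in the 4 lean pre-therapy tumors and 3.67, 4.79, 0.788 and 0.753 CPM in the 4 lean tumors after ETS. In obese tumors it was 0.992, 4.81, 1.93 and 1.47 CPM before therapy and 9.75, 12.4, 8.97 and 43.6 CPM after ETS. All 4 obese tumors after ETS lay above all 4 before therapy, whereas the lean groups overlapped, and obese tumor 4 after ETS was far above its group. Pdgfra rose 8.14-fold in obese tumors (log2 fold change 3.02, SE 0.847, adjusted p = 0.0112), and its log2 fold change in lean tumors was -1.75 (SE 0.813, adjusted p = 0.0913). Without obese tumor 4 after ETS the log2 fold change was 2.19 (adjusted p = 0.0383). Annotated genes on the opposite strand, Gm42802 and Gm42803, overlap Pdgfra, and whether the counting used strand was not stated.

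Pdgfrb (gene ID 18596, chr18:61045127-61085067) encodes the beta receptor, through which endothelial PDGF recruits pericytes. Lean pre-therapy tumors held 13.9, 20.1, 17.7 and 20.5 CPM, and lean tumors after ETS 10.5, 14.9, 8.45 and 8.33 CPM. Obese tumors held 9.61, 13, 14.7 and 13.5 CPM before therapy and 34.6, 20.9, 20.9 and 46.4 CPM after ETS. The obese groups did not overlap, and in lean mice tumor 2 after ETS exceeded pre-therapy tumor 1. Pdgfrb fell 1.71-fold in lean tumors (log2 fold change -0.77, SE 0.257, adjusted p = 0.0238) and rose 2.41-fold in obese tumors (log2 fold change 1.27, SE 0.259, adjusted p = 0.00159). Its spread between tumors of a group, 0.392 on the log2 CPM scale, was the smallest of the 10 genes.

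Dcn (gene ID 13179, chr10:97479500-97518163) encodes decorin, a small leucine-rich proteoglycan that binds collagen fibrils. Lean tumors held 64.8, 45.2, 2.29 and 13.1 CPM before therapy and 4.92, 26.5, 1.70 and 3.99 CPM after ETS. Obese tumors held 1.39, 10.3, 2.34 and 3.02 CPM before therapy and 24.3, 44.7, 11.6 and 149 CPM after ETS. Levels within the lean pre-therapy group spanned 28.3-fold, the lean groups overlapped, and the obese groups did not. Dcn rose 13.5-fold in obese tumors (log2 fold change 3.76, SE 1.11, adjusted p = 0.0148), the largest fold of the 9 tested genes, and the change in lean tumors was -1.76 (SE 1.02, adjusted p = 0.173). Obese tumor 4 after ETS carried much of the size: without it the log2 fold change was 2.66 (adjusted p = 0.0497).

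Lum (gene ID 17022, chr10:97565501-97572703) encodes lumican, a relative of decorin whose gene lies 47337 bases downstream of Dcn on the same strand. Lean tumors held 10.7, 10.1, 0.294 and 3.70 CPM before therapy and 2.35, 4.04, 0.823 and 2.28 CPM after ETS. Obese tumors held 0.124, 2.23, 0.352 and 0.0706 CPM before therapy and 2.90, 8.28, 1.32 and 17.4 CPM after ETS. Obese pre-therapy tumor 2 was alone above 1 CPM in its group and exceeded obese tumor 3 after ETS. Lum rose 10.8-fold in obese tumors (log2 fold change 3.44, SE 1.12, adjusted p = 0.0238), and the change in lean tumors was -1.39 (SE 1.02, adjusted p = 0.281). In obese pre-therapy tumors 1 and 4 its counts were 6 and 4, so the fold rests on few reads there.

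Dpt (gene ID 56429, chr1:164796663-164824274) encodes dermatopontin, a matrix protein of resident skin fibroblasts that binds decorin. Its counts were 1728, 1140, 14 and 193 in lean pre-therapy tumors and 63, 214, 5 and 24 in lean tumors after ETS. Obese tumors held 0, 234, 76 and 0 counts before therapy and 262, 426, 299 and 1087 after ETS. All obese tumors after ETS exceeded all obese pre-therapy tumors, and the counts of 0 allow up to 3 counts, or 0.0636 and 0.0536 CPM in those libraries, for counting error only. In a fit without the limit on low counts, over 28754 genes, the log2 fold change of Dpt was 2.65 in obese tumors (SE 1.4, adjusted p = 0.208) and -3.13 in lean tumors (SE 1.42, adjusted p = 0.131), neither called. An antisense gene, Gm32569, overlaps Dpt on the opposite strand.

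Postn (gene ID 50706, chr3:54359267-54391041) encodes periostin, a matricellular protein made by activated fibroblasts. Its level was 99.3, 114, 39.5 and 38.0 CPM in lean pre-therapy tumors and 36.7, 38.2, 13.3 and 12.0 CPM after ETS. Obese tumors held 12.2, 75.1, 46.5 and 17.8 CPM before therapy and 183, 84.8, 60.0 and 203 CPM after ETS. The lean groups met at about 38 CPM, and in obese mice pre-therapy tumor 2 exceeded tumor 3 after ETS. Postn fell 2.91-fold in lean tumors (log2 fold change -1.54, SE 0.602, adjusted p = 0.0493) and rose 3.50-fold in obese tumors (log2 fold change 1.81, SE 0.605, adjusted p = 0.027). The fall passed the threshold narrowly and was called in 10 of the 16 fits that each left out a tumor.

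Fap (gene ID 14089, chr2:62500936-62575509) encodes fibroblast activation protein, a surface prolyl peptidase of activated fibroblasts, and was the scarcest of the 10 genes per length, at a mean of 1.22 TPM. Lean tumors held 2.41, 2.72, 0.773 and 1.3 CPM before therapy and 0.82, 1.54, 0.322 and 0.560 CPM after ETS. Obese tumors held 0.434, 1.89, 0.921 and 0.212 CPM before therapy and 3.12, 1.89, 1.93 and 6.76 CPM after ETS. Obese pre-therapy tumor 2 reached the lowest obese tumor after ETS, and the other obese pre-therapy tumors lay below. Fap rose 3.96-fold in obese tumors (log2 fold change 1.99, SE 0.646, adjusted p = 0.0237), and in lean tumors the change was -1.16 (SE 0.639, adjusted p = 0.154).

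Thy1 (gene ID 21838, chr9:44043384-44048579) encodes the surface glycoprotein CD90 of fibroblasts. Lean tumors held 31.3, 27.6, 13.3 and 20.9 CPM before therapy and 12.5, 16.1, 6.35 and 3.61 CPM after ETS. Obese tumors held 4.78, 9.51, 8.05 and 4.31 CPM before therapy and 25, 26.5, 12.9 and 34.6 CPM after ETS. Obese tumors after ETS all exceeded those before therapy, and in lean mice only pre-therapy tumor 3 lay within the range after ETS. Thy1 fell 2.42-fold in lean tumors (log2 fold change -1.27, SE 0.426, adjusted p = 0.0248) and rose 3.71-fold in obese tumors (log2 fold change 1.89, SE 0.435, adjusted p = 0.00352). Since mouse T cells also make Thy1, the summed level of 10 T cell markers is given here: it was 32.7 to 61.6 TPM in lean pre-therapy tumors, 1.2 to 2.83 TPM in lean tumors after ETS, 3.06 to 4.13 TPM in obese pre-therapy tumors and 1.47 to 4.8 TPM in obese tumors after ETS. Lck alone had a mean of 2.71 TPM in obese tumors before therapy and 1.62 TPM after ETS, so the sum there rests largely on 1 gene. The high Thy1 of obese tumors after ETS came with T cell markers at about the level of obese pre-therapy tumors, whereas in lean mice both were lower after ETS, and the part of T cells was not tested.

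Rgs5 (gene ID 19737, chr1:169655501-169695813) encodes a regulator of G protein signalling that marks pericytes. Lean tumors held 46.2, 46.0, 66.0 and 26.5 CPM before therapy and 20.7, 13.3, 39.6 and 19.3 CPM after ETS. Obese tumors held 21.6, 21.9, 21.4 and 14.0 CPM before therapy and 35.6, 29.7, 17.3 and 39.7 CPM after ETS. Rgs5 was the single tested gene whose highest tumor was lean, pre-therapy tumor 3, whereas for the other 8 it was an obese tumor after ETS. Rgs5 fell 1.99-fold in lean tumors (log2 fold change -0.99, SE 0.331, adjusted p = 0.0244) and was not called in obese tumors (log2 fold change 0.63, SE 0.330, adjusted p = 0.14).

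Cspg4 (gene ID 121021, chr9:56865104-56899870) encodes NG2, a transmembrane proteoglycan of pericytes and melanoma cells. Lean tumors held 5.76, 6.93, 5.21 and 11.3 CPM before therapy and 12.9, 13.7, 9.97 and 8.49 CPM after ETS. Obese tumors held 6.8, 8.63, 5.93 and 6.16 CPM before therapy and 15.6, 13.4, 12.8 and 7.13 CPM after ETS. In each host a single tumor crossed between the groups, pre-therapy tumor 4 in lean mice and tumor 4 after ETS in obese mice. Cspg4 rose 1.78-fold in obese tumors (log2 fold change 0.83, SE 0.268, adjusted p = 0.0227), and the lean value had the same sign without being called (log2 fold change 0.62, SE 0.267, adjusted p = 0.0694). Obese tumor 4 after ETS, the highest of all 16 tumors for 7 of the other genes, had the lowest Cspg4 of its group.

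**Figure D1:**
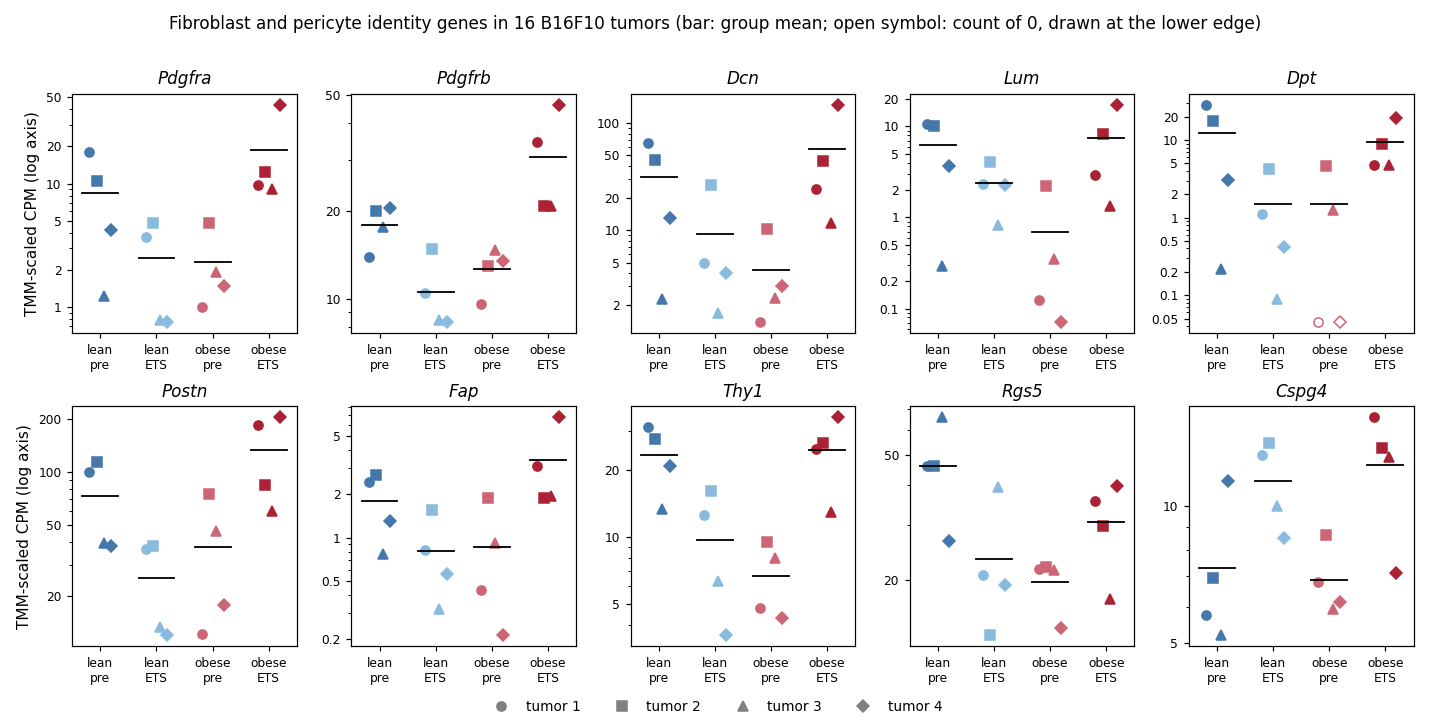
Level of each of the 10 genes in every tumor, in TMM-scaled CPM on a log axis, by group; symbols give the tumor number, bars the group mean of 4 tumors, and open symbols a count of 0. Obese tumor 4 after ETS stands at the top for Pdgfra (43.6 CPM) and Dcn (149 CPM) but at the bottom of its group for Cspg4 (7.13 CPM).

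The first comparison asked what ETS did in lean mice. Pdgfrb, Rgs5, Thy1 and Postn fell, so that 4 of the 9 tested genes were called lower, against 22.8% of all 16209 genes. None of the 9 was called higher, against 21.0% of all genes, while at an unadjusted p under 0.05 1 gene, Cspg4, was higher, and DESeq2 called it. Over the 9 genes the median change was -1.27 on the log2 scale, beside -0.01 over all genes tested. The count was sensitive to single tumors. It was 2 without lean pre-therapy tumor 1, 1 without lean pre-therapy tumor 2 or lean tumor 3 after ETS, and 0 without lean tumor 4 after ETS. A fit without the 5 tumors that held over 50 TPM of skeletal muscle markers, an alternative chosen after those sums had been seen, called only Thy1 lower. It kept 2 tumors in each lean group and called 915 of 16546 genes lower, against 3689 of 16209 in the main fit.

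In obese mice 8 of the 9 tested genes rose after ETS, against 21.2% of all genes called higher, and Rgs5 was the exception. No gene of the set was called lower, against 19.0% of all genes, and the count was 0 also at an unadjusted p under 0.05 and with DESeq2, limma and edgeR's exact test. The median change was 1.89 on the log2 scale, beside 0.01 over all genes. Pdgfra, Pdgfrb, Dcn and Thy1 were called in all 16 fits that left out a tumor, and no obese tumor after ETS overlapped the pre-therapy group for them. Calls of Lum, Fap, Postn and Cspg4 depended on single tumors: 5 genes were called without obese pre-therapy tumor 1 or 3, 4 without obese pre-therapy tumor 4 and 5 without obese tumor 4 after ETS. Without the tumors rich in muscle markers 7 genes were called, all but Lum and Rgs5. Over all genes that fit called 2874 higher, against 3438 in the main fit.

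Whether ETS acted differently in the hosts was tested directly as the lean effect minus the obese effect. The difference was negative and called for 8 of the 9 genes, against 10.1% of all genes called lower, and for none was it called higher, against 6.35% of all genes, with 0 also at an unadjusted p under 0.05 and with DESeq2 and limma. The largest were Dcn (-5.52 on the log2 scale, SE 1.5, adjusted p = 0.0202), Lum (-4.82, SE 1.5, adjusted p = 0.0393) and Pdgfra (-4.78, SE 1.17, adjusted p = 0.0117), and the most precise was Pdgfrb (-2.05, SE 0.364, adjusted p = 0.00145). For the remaining called genes the difference was -3.35 for Postn, -3.16 for Thy1, -3.14 for Fap and -1.62 for Rgs5. For Cspg4 the effects in the hosts were not distinguished (difference -0.21, SE 0.377, adjusted p = 0.753). The call of Lum held in 5 of the 16 fits that left out a tumor, and those of Fap and Rgs5 in 11 each. All 3 were lost without lean tumor 4 after ETS and also without obese tumor 4 after ETS, which left 5 calls, and without the tumors rich in muscle markers 4 calls remained, Pdgfra, Pdgfrb, Postn and Thy1. Over all genes the fit without muscle-rich tumors called 999 lower, against 1630 in the main fit.

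**Figure D2:**
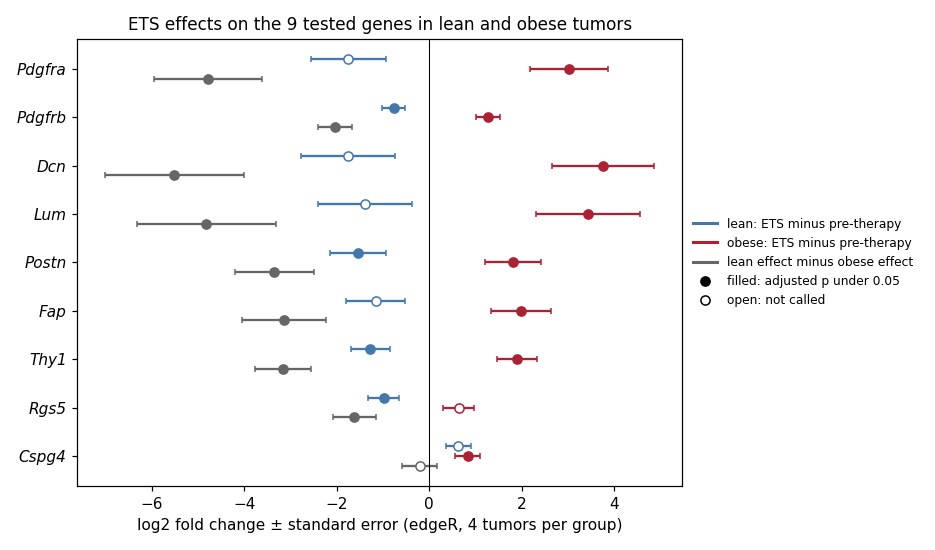
Log2 fold change with its standard error for the 9 tested genes for ETS in each host and for the lean effect minus the obese effect, each from 4 tumors per group; filled points were called at an adjusted p under 0.05. Obese effects lie between 0.63 and 3.76 and lean effects between -1.76 and 0.62, and Cspg4 is the single gene with both effects above 0.

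Before therapy, obese tumors held less of 3 of the 9 genes than lean tumors, against 12.9% of all genes called lower, and none was called higher, against 13.5% of all genes, with 0 also at an unadjusted p under 0.05 and with the other tools. Lum was 8.98-fold lower (log2 fold change -3.17, SE 1.11, adjusted p = 0.0455), Thy1 3.49-fold lower (log2 fold change -1.80, SE 0.434, adjusted p = 0.00644) and Rgs5 2.34-fold lower (log2 fold change -1.23, SE 0.332, adjusted p = 0.0131). For Thy1 and Rgs5 the groups did not overlap, and these calls held in all 16 fits that left out a tumor, whereas Lum was called in 7 of them. Dcn was at -2.88 (adjusted p = 0.0591), Pdgfra at -1.88 (adjusted p = 0.105), Pdgfrb at -0.50 (adjusted p = 0.163) and Cspg4 at -0.09 (adjusted p = 0.843). This comparison and the ETS comparisons share their pre-therapy tumors, so their values are not independent. Melanocyte markers summed to 18100 to 22200 TPM in lean and 9160 to 13500 TPM in obese pre-therapy tumors, with 6 of 10 called lower in obese tumors, and their part in the host comparison was not tested.

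After ETS, obese tumors held more Pdgfrb (2.91-fold, log2 fold change 1.54, SE 0.261, adjusted p = 0.00942) and Postn (5.30-fold, log2 fold change 2.41, SE 0.618, adjusted p = 0.0383) than lean tumors. These 2 of 9 genes compare with 3.28% of all genes called higher, and none was called lower, against 2.30% of all genes, with 0 also at an unadjusted p under 0.05 and with the other tools. Pdgfra was 7.48-fold higher without being called (adjusted p = 0.0544), although its groups did not overlap, and Fap (4.24-fold, adjusted p = 0.0681) also had groups apart. Thy1 had an adjusted p of 0.0701, Dcn of 0.135, Lum of 0.33, Rgs5 of 0.483 and Cspg4 of 0.812. When only the tumors compared entered the fit no identity gene was called, whereas DESeq2 and edgeR's exact test each called 5. Over all genes these fits called 51, 1125 and 975 higher, against 531 in the main fit. Postn was lost without any of lean tumors 1, 2, 3 or 4 after ETS, or obese tumor 1 or 4 after ETS, which left Pdgfrb alone.

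Per length, Postn was the most abundant of the 10 genes with a mean of 40.7 TPM over the 16 tumors, followed by Dcn (26.2 TPM), Thy1 (17.8 TPM) and Rgs5 (14.3 TPM). Dpt, Pdgfrb and Lum had means of 7, 6.4 and 3.86 TPM, and Pdgfra, Cspg4 and Fap lay lowest at 2.38, 2.17 and 1.22 TPM. Neighbours in this order differed by less than their ranges over tumors, since Postn ran from 6.47 to 128 TPM and Dcn from 1.45 to 158 TPM. By group means in CPM, obese tumors after ETS stood highest for 8 of the genes, and lean pre-therapy tumors for Rgs5 (46.2 ± 16.1 CPM, SD, n = 4) and Dpt (12.4 ± 13.3 CPM, SD, n = 4). Lean pre-therapy and obese post-ETS tumors overlapped in 9 of the 10 genes, all but Pdgfrb, so for those 9 their order is within the spread. How often groups lay apart over all genes was not counted, here or for the other statements on overlap.

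Ratios within a tumor, chosen after the values had been seen and given without a test, set Pdgfra and Rgs5 each against Pdgfrb on the TPM scale. The ratio of Pdgfra to Pdgfrb was 1.08, 0.421, 0.0537 and 0.198 in lean pre-therapy tumors and 0.351, 0.319, 0.072 and 0.0636 in lean tumors after ETS. It was 0.081, 0.289, 0.0991 and 0.0835 in obese pre-therapy tumors and 0.232, 0.503, 0.361 and 0.773 after ETS. Pdgfra thus exceeded Pdgfrb only in lean pre-therapy tumor 1. The ratio of Rgs5 to Pdgfrb was 1.10 to 1.88 in obese tumors after ETS (median 1.24), 1.38 to 2.99 in obese pre-therapy tumors (median 2.06), 1.70 to 4.95 in lean pre-therapy tumors and 1.15 to 6.25 in lean tumors after ETS. Rgs5 and Pdgfrb did not keep a fixed ratio to each other.

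Tumors of a group differed widely, and 7 genes, Pdgfra, Dcn, Lum, Dpt, Postn, Fap and Thy1, differed together. After subtraction of the group means, the correlation of log2 CPM over the 16 tumors had a median of 0.835 over the 21 pairs of these genes (0.728 to 0.925, Spearman median 0.805), and the closest pair was Pdgfra with Dcn (0.925, Spearman 0.909). Over all 45 pairs the median was 0.554 (-0.495 to 0.925, Spearman median 0.538). The 7 genes were grouped after these values had been seen, and the points share library, depth and cell content, so no p is given. Without lean pre-therapy tumor 3 and obese pre-therapy tumor 2, the tumors farthest from the rest, the medians were 0.801 and 0.623 over 14 tumors. Rgs5 and Cspg4 stood outside, with a mean correlation of -0.10 and 0.01 with the other tested genes and -0.495 with each other, and Pdgfrb lay between (0.359). With the 7 genes Pdgfrb correlated at 0.308 (Lum) to 0.597 (Postn), but at -0.036 with Rgs5 and -0.002 with Cspg4.

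**Figure D3:**
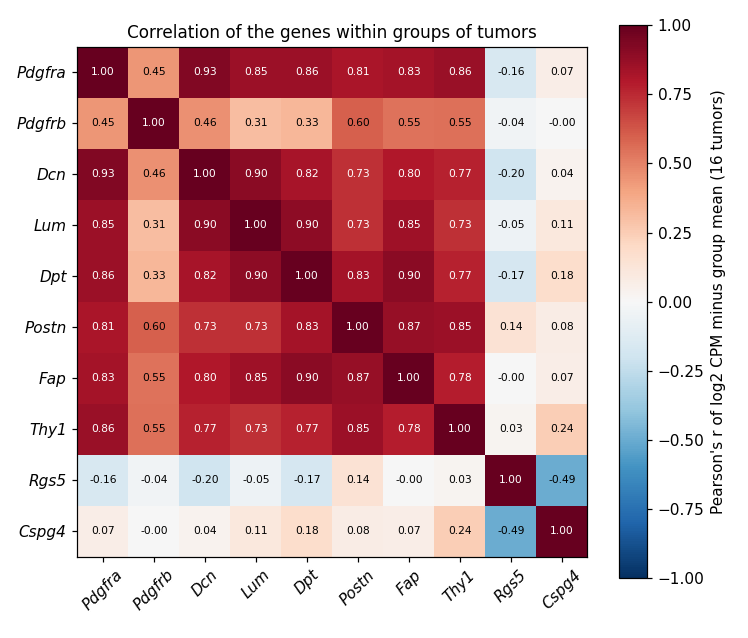
Pearson correlation between each pair of the 10 genes over 16 tumors, after subtraction of the group mean of log2 CPM; red is positive and blue negative. A block of 7 genes is at 0.728 or above, and Rgs5 and Cspg4 are at -0.495 with each other.

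The same shift showed tumor by tumor. In obese pre-therapy tumor 2 all 9 tested genes lay above their group mean, by 1.08 on average on the log2 CPM scale, and in lean pre-therapy tumor 3 only 1 of 9, Rgs5, did, with an average of -1.19. Lean tumor 2 after ETS and obese tumor 4 after ETS each had 8 of 9 genes above, by 0.851 and 0.927 on average. Dpt varied most, with a within-group spread of 2.66 on the log2 CPM scale, ahead of Lum (1.80), Dcn (1.68) and Pdgfra (1.30), and Rgs5 (0.525), Cspg4 (0.403) and Pdgfrb (0.392) varied least.

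Among 13306 other tested genes with a mean of at least 1 CPM, the 9 most like the set within groups were Mfap2, Plcl2, Rnase4, Igsf10, Slc43a3, Il1rl2, Dram1, Ly6a and Spi1. Their mean correlations with the 9 genes over 16 tumors ran from 0.658 for Spi1 to 0.667 for Mfap2, a component of microfibrils. Spi1 encodes a transcription factor of myeloid cells. Each of the 9 was least correlated with Rgs5 or Cspg4.

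Of 25 further fibroblast markers, among them the collagens Col1a1, Col1a2 and Col3a1, 19 were tested. In lean tumors 8 fell and 2 rose after ETS, with a median change of -1 on the log2 scale. Of all genes 22.8% fell and 21.0% rose there, so the rises are no more frequent than over all genes. In obese tumors 17 rose and 1 fell, against 21.2% and 19.0% of all genes, with a median of 2.63, beside 0.01 over all genes. The host difference was called lower for 14 and higher for none, against 10.1% and 6.35% of all genes, with a median of -3.68. Col3a1, the fibrillar collagen III, had the largest called fall in lean tumors (from 579 ± 458 to 100 ± 73.9 CPM, log2 fold change -2.53, SE 0.882, adjusted p = 0.0299) and the largest called rise in obese tumors (from 109 ± 99.5 to 960 ± 1120 CPM, log2 fold change 3.14, SE 0.904, adjusted p = 0.013; mean ± SD, n = 4). Pcolce, an enhancer of procollagen processing, rose in both hosts, by 1.11 in lean and 1.40 in obese tumors on the log2 scale (adjusted p = 4.77e-05 and 2.06e-05). Ddr2, a collagen receptor, fell in both, by 1.65 in lean and 0.58 in obese tumors (adjusted p = 9.68e-06 and 0.0157). Tcf21 was at 0 in all 16 tumors.

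Of 19 further markers of pericytes and vascular smooth muscle, 18 were tested, and in lean tumors 3 rose and 4 fell, with a median of 0.19, and these counts are near the shares over all genes, 21.0% and 22.8%. In obese tumors 10 rose and none fell, against 21.2% and 19.0% of all genes, with a median of 1.10. The host difference was lower for 5 and higher for 1, against 10.1% and 6.35% of all genes. The 1 higher was Mylk, which encodes myosin light chain kinase, and is no more frequent than over all genes. Angpt1, the angiopoietin that pericytes supply to endothelium, fell in lean tumors from 3.59 ± 1.27 to 0.514 ± 0.315 CPM (log2 fold change -2.81, SE 0.576, adjusted p = 0.00141) and rose in obese tumors from 0.194 ± 0.102 to 0.736 ± 0.5 CPM (log2 fold change 1.91, SE 0.619, adjusted p = 0.0231; mean ± SD, n = 4). Des, encoding desmin of pericytes and muscle, rose in lean tumors from 8.59 ± 6.33 to 34.0 ± 26.5 CPM (log2 fold change 1.98, SE 0.640, adjusted p = 0.0207; mean ± SD, n = 4). Skeletal muscle markers were high in lean pre-therapy tumors 2 and 4, lean tumors 1 and 2 after ETS and obese tumor 2 after ETS. Their part in the values of Des in either host was not tested. Des also rose in obese tumors, from 7.79 ± 1.49 to 28.6 ± 25 CPM (log2 fold change 1.88, adjusted p = 0.0296). Its host difference was 0.10 (adjusted p = 0.95). Mcam, which melanoma cells also make, was the most abundant of the list at a mean of 136 TPM.

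Of the PDGF ligands, Pdgfa rose in both hosts, in lean tumors by 0.54 on the log2 scale (adjusted p = 0.0462) and by 0.92 in obese ones (adjusted p = 0.00315), with a host difference of -0.38 (adjusted p = 0.408). Pdgfb, the ligand made by endothelium, was not called with ETS in the lean host (-0.38, adjusted p = 0.42) or the obese host (0.55, adjusted p = 0.245) or for the host difference (-0.93, adjusted p = 0.245). Pdgfc rose in obese tumors from 0.809 ± 0.390 to 3.89 ± 1.53 CPM (mean ± SD, n = 4; log2 fold change 2.26, adjusted p = 0.00362) and was at -0.85 in lean tumors (adjusted p = 0.182), with a host difference of -3.11 (adjusted p = 0.0084). Pdgfd, a ligand of the beta receptor, fell in lean tumors by 0.77 (adjusted p = 0.022) and rose in obese tumors by 0.99 (adjusted p = 0.00723), with a host difference of -1.76 (adjusted p = 0.00364).

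Between obese and lean tumors before therapy, Pdgfd was at -1.88 (adjusted p = 0.00011), Pdgfc at -1.56 (adjusted p = 0.0362), Pdgfb at -0.83 (adjusted p = 0.11) and Pdgfa at 0.35 (adjusted p = 0.238). After ETS, Pdgfa was at 0.73 (adjusted p = 0.0511), Pdgfb at 0.10 (adjusted p = 0.899), Pdgfc at 1.55 (adjusted p = 0.0764) and Pdgfd at -0.11 (adjusted p = 0.815), so no ligand was called there. Over the 20 genes of the PDGF list, which includes both receptors, the lean host had 3 that rose and 7 that fell, and the obese host 11 and 3, beside 21.0% and 22.8% of all genes in the lean host and 21.2% and 19.0% in the obese host, so the rises in lean and the falls in obese tumors are no more frequent than over all genes. Shc1, an adaptor of receptor signalling, had the largest called rise in lean tumors (0.87, adjusted p = 8.26e-06), and Nrp1, a co-receptor, the largest called fall there (-1.23, adjusted p = 6e-05). Rasa1, a GTPase-activating protein, had the largest called fall in obese tumors (-0.55, adjusted p = 0.000111).

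Among 13 small leucine-rich proteoglycans, 7 were tested and Dcn, Lum, Bgn and Podn rose in obese tumors, against 21.2% of all genes. None was called in lean tumors, where the median was -1.15, against 21.0% of all genes called higher and 22.8% lower. Bgn, encoding biglycan, rose from 51.2 ± 23.5 to 289 ± 153 CPM in obese tumors (mean ± SD, n = 4; log2 fold change 2.5, SE 0.52, adjusted p = 0.00185). Kera, encoding keratocan, was at 0 in every tumor. Of 21 tested genes of TGF-beta signalling, the lean host had 3 that rose and 7 that fell, against 21.0% and 22.8% of all genes. The obese host had 10 and 1, against 21.2% and 19.0% of all genes. The rises in lean and the fall in obese tumors are no more frequent than over all genes. Tgfbi, a matrix protein induced by TGF-beta, had the largest called lean fall (from 90.1 ± 24.8 to 6.73 ± 5.27 CPM, log2 fold change -3.75, SE 0.652, adjusted p = 0.000443; mean ± SD, n = 4) and was at 2.60 in obese tumors (adjusted p = 0.00465). Tgfb2, a ligand, had the largest called lean rise (0.90, adjusted p = 0.0023), and in obese tumors Lrg1, a modulator of this pathway in endothelium, had the largest called rise (2.76, adjusted p = 0.0392) and the receptor gene Tgfbr1 fell (-0.45, adjusted p = 0.00493).

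Of 10 R4 regulators of G protein signalling, 6 were tested, and in lean tumors Rgs3 rose (0.51, adjusted p = 0.00455) and Rgs5 was the 1 called lower. In obese tumors Rgs4 rose (1.19, adjusted p = 0.016), and the host difference was called for Rgs5, whereas for Rgs4 it was -1.34 (adjusted p = 0.0804). Differences between these family members were not tested. Rgs13 and Rgs21 were at 0 throughout. Of 7 prolyl peptidases related to Fap, 5 were tested, and Dpp4, its closest relative, fell with ETS in the lean host (-2.97, adjusted p = 0.0381) and rose in the obese host (3.23, adjusted p = 0.0388). Dpp9, a cytosolic relative, fell with ETS in the lean host (-0.43, adjusted p = 0.000369) and in the obese host (-0.31, adjusted p = 0.0036). Of the 5 tested, 2 fell and 0 rose in lean tumors, against 22.8% and 21.0% of all genes. In obese tumors 2 rose and 2 fell, against 21.2% and 19.0% of all genes.

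Markers of other cell types were read in the same tumors. The summed level of 10 macrophage markers was 771 to 2050 TPM in lean pre-therapy tumors, 70.2 to 494 TPM in lean tumors after ETS, 62.5 to 395 TPM in obese pre-therapy tumors and 471 to 1550 TPM in obese tumors after ETS, with Lyz2 the most abundant. Of these 10 markers 8 fell in the lean host and 8 rose in the obese host, with medians of -2.13 and 2.5. For this and the next lists, 22.8% of all genes fell and 21.0% rose in the lean host. In the obese host 19.0% of all genes fell and 21.2% rose. Endothelial markers summed to 229 to 339, 215 to 243, 126 to 199 and 256 to 386 TPM in the same order of groups. Of the 10, 1 fell in the lean host and 8 rose in the obese host, with medians of -0.17 and 1.14, and Eng was the most abundant. Of the T cell markers only Lck, a kinase of T cells, was above 0 in every tumor, and it fell in both hosts. Cd3e was at 0 CPM in obese pre-therapy tumors and at a mean of 0.113 CPM in obese tumors after ETS. The fall of Lck in obese tumors is thus that of 1 gene and was not seen in Cd3e. Melanocyte markers, led by Tyrp1, had medians of 0.47 in lean and 0.66 in obese tumors, with 3 and 5 of 10 rising and none falling. In lean tumors the 3 melanocyte rises are near the share over all genes, and the 1 endothelial fall is below it. The part of these cells in the changes of the identity genes was not tested.

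Tissue next to the tumor was visible in some libraries. Skeletal muscle markers, led by Acta1, summed to 277 and 71.0 TPM in lean pre-therapy tumors 2 and 4, 322 and 230 TPM in lean tumors 1 and 2 after ETS and 499 TPM in obese tumor 2 after ETS, against 4.16 to 10.1 TPM in the other 11. Keratinocyte markers, led by Krt14, summed to 162 TPM in obese tumor 2 after ETS and 5.41 TPM in lean pre-therapy tumor 2, against 0 to 0.626 TPM elsewhere, and none of the 10 was tested. Adipocyte markers, led by Fabp4, summed to 85.1 to 139, 50.4 to 71.8, 70.5 to 287 and 238 to 627 TPM. All 3 tested rose in obese tumors, as did 2 of the 5 muscle markers tested, against 21.2% of all genes. Schwann cell markers, led by Mbp, summed to 147 to 163, 270 to 369, 311 to 347 and 280 to 751 TPM. Obese tumor 4 after ETS, the highest for most identity genes, held 8.44 TPM of muscle and 0.626 TPM of keratinocyte markers, and its 9490 TPM of melanocyte markers was the lowest of its group.

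**Figure D4:**
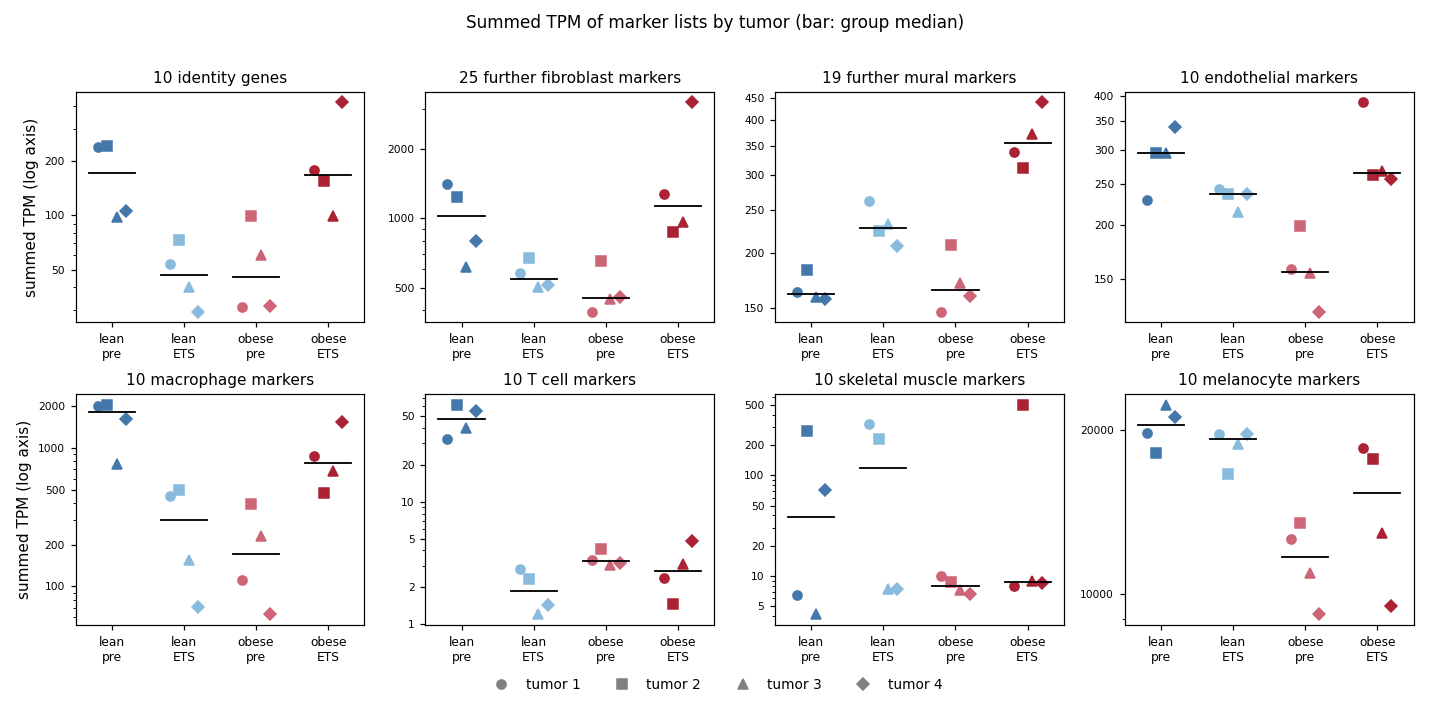
Summed TPM of 8 marker lists in each tumor on log axes, by group; symbols give the tumor number and bars the group median. The identity genes sum to 99.4 to 420 TPM in obese tumors after ETS and 31.0 to 99.5 TPM before therapy, the macrophage markers are likewise higher after ETS (471 to 1550 TPM) than before (62.5 to 395 TPM) in obese tumors, and the muscle markers stand out in 5 tumors.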

How the data were processed

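RNA of 16 B16F10 tumors, 4 per group, was analysed. The authors trimmed reads with Trimmomatic, aligned paired 101-base reads of stranded poly(A) libraries to mm10 with HISAT2 2.1.0 and quantified genes with StringTie 2.1.3b, and the tools and builds come from the submitters' processing notes and the study's methods. The deposited read counts are whole numbers per gene, not normalized, and the deposited TPM values come from the same step. The 16 FPKM columns were not used, and whether counting used strand was not stated. As in the study's methods, the 29568 of 45777 genes that lacked a read in at least 1 tumor were removed. Counts were scaled by TMM and tested with edgeR 4.0.16 (R 4.3.3), quasi-likelihood test, all tumors in a fit with group means, Benjamini-Hochberg adjustment over 16209 genes. Correlations used log2 CPM with a prior count of 2. Alternatives used DESeq2 1.42.0 and limma 3.58.1, among others. The test was checked on simulated data. Named genes were the 10 identity genes, the largest called rise and fall of each list per ETS comparison, the 4 PDGF ligands and the 10 most alike genes, of which 1 is not reported here. Mylk, Mcam and the genes at 0 were named after their values were seen, as were Pcolce, Ddr2 and Des in the second host. The members and lists were chosen with earlier results of these data known. The lowest chi-square per degree of freedom among 24 within-group pairs was 25.6, so no library was counted as a repeat. Of the listed gene IDs, 45679 were matched to the GRCm38.p6 gene table. Intervals and limits on counts of 0 cover counting error only.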

Additional observations from a re-analysis of the deposited data

Results flagged for a closer look

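For 8 genes the effect of ETS differed between lean and obese tumors by the interaction test (lean minus obese, log2 scale, edgeR): Pdgfra at -4.78, Pdgfrb at -2.05, Dcn at -5.52, Lum at -4.82, Fap at -3.14, Postn at -3.35, Thy1 at -3.16 and Rgs5 at -1.62.

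In 4 of 40 combinations of gene and group a tumor lay apart from the other 3 by Dixon's test at its 95% critical value, where chance flags about 1 in 20 groups. These were Pdgfra in obese tumor 4 after ETS (43.6 CPM), Dcn in lean tumor 2 after ETS (26.5 CPM), Lum in obese pre-therapy tumor 2 (2.23 CPM) and Rgs5 in obese pre-therapy tumor 4 (14.0 CPM).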

How the results depend on the processing

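Counts of called genes (of 9) moved past 1.5 times mainly for the host comparison after ETS. Against 2 called higher, the count was 1 without the limit on low counts, 5 with the exact test on counts plus 1, 5 with DESeq2, 0 when a fit held only the tumors compared, 4 by limma on log2(TPM + 0.1) and 0 without the tumors over 50 TPM of muscle markers. Over all genes, the main fit called 531 higher in this comparison. These settings, in the order given, called 255, 975, 1125, 51, 696 and 1, so both counts moved the same way. The setting without muscle-rich tumors, chosen after seeing the data, left 2, 2, 4 and 3 tumors per group. It also gave 1 called lower in lean tumors and 4 for the difference between the effects. Over all genes it called 915 and 999 lower there, against 3689 and 1630 in the main fit. DESeq2 called 1 gene, Cspg4, higher in lean tumors. When each tumor was left out, lean counts ran from 0 to 4 lower and 0 to 1 higher, the obese count from 4 to 8 higher, the difference from 5 to 8 lower, the pre-therapy host count from 2 to 4 lower and the post-ETS host count from 1 to 3 higher. The sign changed only for uncalled values of Cspg4: over the fits that left out a tumor the difference between the effects ran from -0.43 to 0.081 and the pre-therapy host difference from -0.22 to 0.20, both above 0 without lean pre-therapy tumor 4, and without the muscle-rich tumors the latter was 0.29. The cause was not tested. On the log2(TPM + 1) scale the median over all genes moved by -0.35 for lean ETS, -0.09 for obese ETS, -0.26 in the difference, -0.13 before therapy and 0.13 after ETS. With it 1351 genes were called higher and 7281 lower in lean tumors, against 3410 and 3689 with TMM. The obese split was 2572 and 3333 against 3438 and 3079, that of the difference 228 and 2239 against 1030 and 1630, that before therapy 1127 and 2765 against 2181 and 2099, and that after ETS 663 and 128 against 531 and 373. No identity gene changed sign on either TPM scale.

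Samples with the same number correlated at a mean of 0.0842 to 0.205, above the -0.0417 of different numbers, and 7 of 16 tumors correlated best with their own number. Since single pairs went down to -0.112 and the labels name no shared animal or batch, numbers were not taken as pairs. With the replicate block, 5 genes were called higher after ETS between hosts (2 without it) and 4 lower before therapy (3 without it), and the other counts kept their values. Over all genes, 882 were called higher after ETS between hosts (531 without it) and 2356 lower before therapy (2099 without it).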
